A study of Mus musculus with 24 samples.

Results

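The flanks of CpG islands were examined in brown adipose tissue (BAT) of infant mice, as MspI fragments that lay outside the cores of the islands but close to them. A fragment was a member when the authors' annotation did not class it as an island core, placed it 1 to 2000 bp from an island and placed it over 1000 bp from the start of the gene it was assigned to. Of the 65535 fragments of the table, 1281 were members (1.95%), at 634 islands and with 637 gene names. The authors classed 995 of them as shores and 286 as straddling the edge of an island. They lay on chromosomes 1 (512 fragments), 2 (524 fragments) and 3 (245 fragments).

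The study asked whether perinatal exposure to the pesticide DDT altered DNA methylation in BAT. C57BL/6J dams were gavaged from mid-gestation until postnatal day (PND) 5 with DDT, given as its o,p' and p,p' isomers together, or with the olive oil vehicle alone (VEH), and intrascapular BAT of their female pups was collected at PND 12. Each of the 24 libraries, 12 DDT and 12 VEH, held BAT pooled from several female pups of 1 litter, so litters are the replicates and the spread between pups was not measured. All mice carried the same genetic background and both groups received olive oil. A pool of whole tissue holds every cell type of the fat pad, so a change in the mix of cells and a change of methylation within a cell type cannot be told apart. Of the 12 brown adipocyte marker genes that were looked for, 1 had fragments in the table and 0 had flank fragments, so the labelled tissue could not be checked on them.

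CpG islands are stretches of DNA with many CpG dinucleotides, often at the starts of genes, and are mostly free of methylation. In most tissues methylation rises on moving out of an island through its flank, called the shore, into the mostly methylated remainder of the genome, and shores are known as places where methylation differs between tissues. Reduced representation bisulfite sequencing (RRBS) cuts DNA with MspI at CCGG, converts unmethylated cytosines by bisulfite, and calls every CpG in a read as methylated or not. Bisulfite does not separate methylation from hydroxymethylation. The methylation level of a fragment is here the percentage of methylated calls among all its CpG calls in a library, given for libraries with 10 or more calls.

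Testing required a level in 8 or more VEH and 8 or more DDT libraries. This held for 313 of the 1281 flanks (24.4%), compared with 30.9% of the whole table, and these 313 lay at 207 islands. Of the 968 flanks that were not tested, 711 had 10 calls in no library and 320 of those had 0 calls anywhere. Tested flanks were shorter, with a median of 60 bp against 122.5 bp. The tested set comprised 247 shore fragments and 66 fragments across an edge. Libraries held 8371958 to 14124652 CpG calls in the table, and the median tested flank had 102 to 188 calls in all libraries except DDT replicates 3 (85 calls) and 4 (11 calls). DDT replicate 4 had a level at only 158 of the 313 flanks. This library and DDT replicate 12 stood apart from the others, and results that rest on them are given with and without them.

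Several flank sequences are shown first because they carry the contrasts described below. They are the plus strand of GRCm38, 5′ to 3′, with each CpG in capitals, and they begin at the MspI cut, so that the leading CG belongs to the CCGG site. The first 4 lie on 1 side of the island of Usp21, within a short stretch in which the level went up and down. The Celsr2 fragment was nearly fully methylated beside an island core that was nearly free of methylation. The Prox1 pair and the last 3 carry the smallest p-values of the comparison of DDT with VEH or stand beside one that does.
Usp21, chr1:171286855-171286917: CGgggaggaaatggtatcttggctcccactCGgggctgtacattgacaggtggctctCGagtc
Usp21, chr1:171286516-171286635: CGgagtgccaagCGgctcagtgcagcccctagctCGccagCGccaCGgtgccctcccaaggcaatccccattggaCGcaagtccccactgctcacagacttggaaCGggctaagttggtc
Usp21, chr1:171286477-171286515: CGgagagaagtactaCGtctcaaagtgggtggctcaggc
Usp21, chr1:171286384-171286476: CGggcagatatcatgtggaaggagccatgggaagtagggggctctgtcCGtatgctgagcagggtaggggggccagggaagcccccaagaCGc
Celsr2, chr3:108414425-108414497: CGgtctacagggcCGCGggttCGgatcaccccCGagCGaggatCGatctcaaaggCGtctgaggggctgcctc
Prox1, chr1:190169600-190169654: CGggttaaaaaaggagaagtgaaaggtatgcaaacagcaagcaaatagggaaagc
Prox1, chr1:190169470-190169522: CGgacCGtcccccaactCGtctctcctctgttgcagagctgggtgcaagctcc
Btg2, chr1:134077988-134078028: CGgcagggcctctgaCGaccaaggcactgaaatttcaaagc
Mex3a, chr3:88531267-88531316: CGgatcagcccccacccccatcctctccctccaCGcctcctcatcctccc
Susd4 island, chr1:182763221-182763392: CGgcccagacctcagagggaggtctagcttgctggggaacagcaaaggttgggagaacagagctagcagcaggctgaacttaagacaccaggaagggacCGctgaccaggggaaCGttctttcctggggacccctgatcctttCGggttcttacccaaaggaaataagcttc

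In VEH libraries the flanks stood between the island cores and the fragments away from islands. The mean level over tested flanks ran from 24.1% to 27.4%, with a median of 25.6%, and the mean of the 12 libraries was 26.0% ± 0.94 (SD, n = 12). The 1437 tested core fragments over 1 kb from the start of their gene were at 8.27% ± 0.40 (SD, n = 12), and the 10968 tested fragments over 2 kb from an island and over 1 kb from a gene start were at 53.5% ± 0.94 (SD, n = 12). Flanks were above cores in 12 of 12 VEH libraries, by 16 to 19.1 percentage points, and below the distant fragments in 12 of 12, by 26.7 to 28.5 points. The same order held in 12 of 12 DDT libraries. Classes within a library share its reads, so these are descriptions over libraries and no p-value is given.

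**Figure D1:**
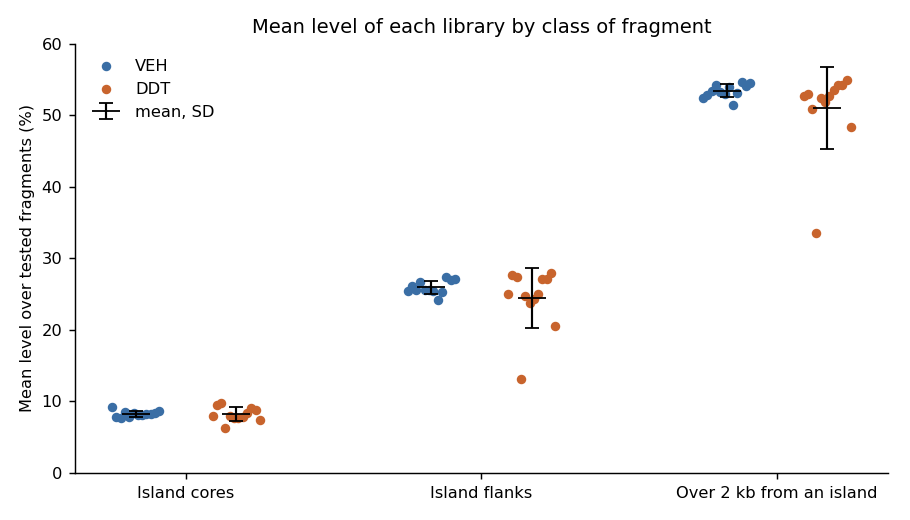
Mean methylation level (%) of each library over the tested fragments of island cores, island flanks and fragments over 2 kb from an island, with 12 VEH libraries in blue, 12 DDT libraries in orange, and the mean and SD in black. VEH flanks sat between 24.1% and 27.4%, apart from both other classes, and the lowest DDT flank means were those of DDT replicate 4 (13.2%) and DDT replicate 12 (20.5%).

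The mean hid a spread of levels among the flanks. In VEH, 214 of the 313 tested flanks were under 20% (68.4%), 61 were between 20% and 80%, and 38 were over 80% (12.1%). Among the cores 94.8% were under 20%. Among the distant fragments, 33.5% were under 20% and 38.6% over 80%. The median flank was at 11.5%, compared with 3.85% for cores and 63.2% for distant fragments.

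The level differed with the distance from the island, measured to its near edge. Fragments across the edge had a mean of 12.2% and a median of 8.27% over 66 fragments. Within 500 bp outside the edge the mean was 18.2% and the median 10.1% (100 fragments), and from 500 to 1000 bp they were 36.7% and 18.8% (70 fragments). Each of these bands was above the one before it in 12 of 12 VEH libraries. From 1000 to 1500 bp the mean was 41.1% and the median 26.7% (55 fragments), again above the band before it in 12 of 12. In the outermost band, 1500 to 2000 bp, the mean was 29.4% and the median 9.05% (22 fragments), and it was below its neighbour in every VEH library (0 of 12 above).

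The authors' distance runs to the end of the island at the 5′ side of the gene and not to the near edge, and for shores it exceeded the distance to the near edge by a median of 409 bp. A further 290 fragments lay within 2 kb of the near edge but had an authors' distance over 2000 bp and were no members. The 74 of these that were tested had a mean of 39.6% in VEH. With members taken by the near edge, a choice made after the data were seen, the band of 1500 to 2000 bp held 46 fragments and exceeded that of 1 to 500 bp by 25.8 points, where the difference was 11.6 ± 1.67 points (SD, n = 12) among the members. The same difference was 1.09 points over flanks with a level in all 24 libraries and -0.62 points with pooled calls. The outer band was not compared with its inner neighbour under these choices, and the part of the choice of members in its lower level was not tested.

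**Figure D2:**
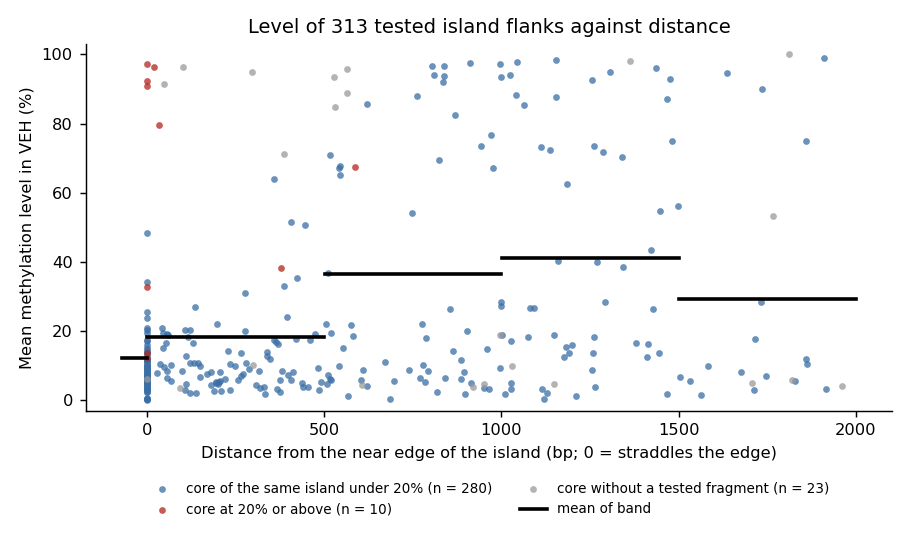
Mean methylation level in VEH (%) of each of the 313 tested flanks against its distance in bp from the near edge of the island, where 0 marks fragments across the edge, colours give the level of the core of the same island, and black bars are the means of the distance bands. Low flanks occurred at every distance, and flanks over 80% beside a core under 20% began at 622 bp.

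Distance ordered single fragments only loosely. Over the 313 tested flanks Spearman's rho between VEH level and distance to the edge was 0.26, and over the 247 that lay outside the edge it was 0.18. These fragments share libraries and islands, so the coefficients are descriptions. On island sides with several tested flanks there were 72 steps from a fragment to the next one outward, of which 31 went up and 41 went down. Of the steps larger than 20 points, 4 went up and 6 went down, and the median step was 9.58 points in size.

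The core of the same island had a tested fragment for 290 of the 313 flanks. The flank was above its own core at 221 of them (76.2%), with a median difference of 5.77 points. The difference was over 10 points at 107 flanks and over 50 points at 43, and 5 flanks were below their core by over 10 points. The level of the core gave little order to the flanks, since rho between both levels was -0.030 over 290 flanks. The cores were much alike, since 280 of the 290 flanks had a core under 20%, and those flanks had a mean of 23.0% and a median of 10.8%. The 5 flanks with a core over 80% had a median of 92.4%. They include the fragments assigned to Kcnh7, AC101970.1 and AC107678.1, whose bases are all marked as repeat in the reference. Reads from repeats can stem from other copies, so these levels are uncertain.

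Among the flanks beside a core under 20%, 25 were over 80% methylated, at 22 islands. They lay 622 to 1911 bp from the edge, and 0 of them lay within 500 bp. GENCODE placed 12 on exons, 3 in introns and 10 between genes. These methylated flanks varied little between VEH libraries, with a median SD of 2.64 points. The following examples were chosen after their values were seen. At Celsr2, a cadherin receptor of planar cell polarity, the core was at 2.27% in VEH, whereas the exon fragment 838 bp outside it, shown above, ran from 91.6% to 98.8% with a median of 97.2%. Its exon neighbour at 911 bp ran from 90.0% to 100% with a median of 100%. Both Celsr2 fragments were thus almost fully methylated in each VEH library with a level, beside an island that was almost unmethylated.

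Between genes the same contrast was seen. Beside the island of Wdr5, a subunit of histone methyltransferase complexes, with a core at 2.40%, the fragment 1154 bp away ran from 95.6% to 100% with a median of 98.9%. At Mpzl1, a cell surface glycoprotein gene with a core at 4.85%, the fragment 1911 bp away ran from 98.1% to 99.7% with a median of 99.1%. The fragment 996 bp from the island of Dynlrb1, a dynein light chain gene, ran from 94.8% to 98.5%, and all its bases are marked as repeat in the reference. Of the 25 fragments, 2 were repeat over their whole length.

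Flanks of high, intermediate and low level differed in CpG density, and in distance within the limits that the choice of members set. CpG density was no direct criterion of that choice, but it is tied to it, since islands are stretches with many CpGs. The 38 flanks over 80% had a median of 3.92 CpGs per 100 bp and lay a median of 889.5 bp from the edge and 1480.5 bp from the nearest GENCODE transcript start. The 214 flanks under 20% had 5.71 CpGs per 100 bp and lay 283 bp from the edge and 452.5 bp from a transcript start. Intermediate flanks were the poorest in CpGs, with 3.03 per 100 bp, and lay in between in distance, at 586 bp from the edge and 1081 bp from a transcript start. High flanks were thus farther from both edge and start than low flanks, as medians.

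Among the members, CpG density went with the level more closely than distance did, with rho of -0.47 over 313 flanks. The rule limited the distance directly but not the density, so these coefficients do not stand on equal terms. The mean level was 46.1% in the 24 flanks with under 2 CpGs per 100 bp, 36.9% in 91 flanks with 2 to under 4, 21% in 79 flanks with 4 to under 6, and 16.6% in 119 flanks with 6 or more. The order also held inside each distance band. Flanks with under 4 CpGs per 100 bp against flanks with 4 or more had means of 18.6% and 10.6% across the edge, 30.3% and 12.0% within 500 bp, and 43.3% and 31.9% from 500 to 1000 bp. They had means of 46.4% and 33.9% from 1000 to 1500 bp and 64.5% and 13% from 1500 to 2000 bp, where they numbered 7 and 15. CpG-rich flanks were therefore less methylated at each distance, as means over fragments. GC content had rho of -0.32, and fragment length of 0.048.

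**Figure D3:**
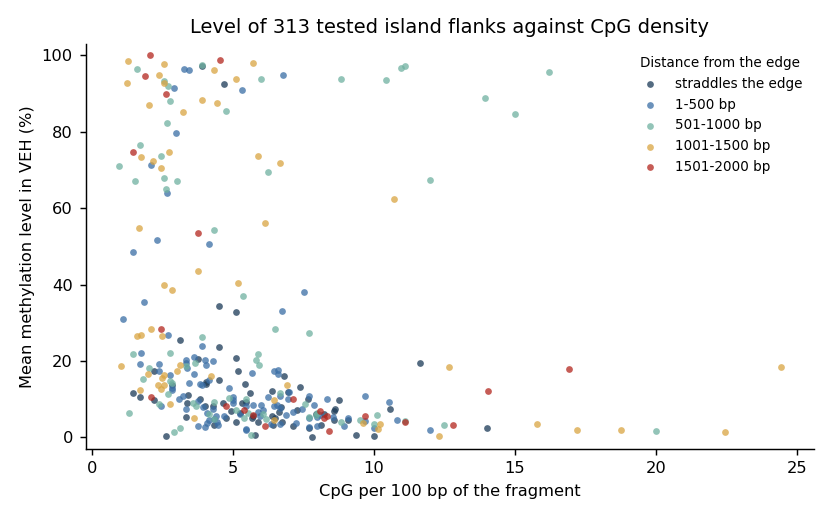
Mean methylation level in VEH (%) of the 313 tested flanks against the number of CpGs per 100 bp of the fragment, coloured by distance from the island edge in bp. Flanks with 6 or more CpGs per 100 bp had a mean of 16.6% and those with under 2 a mean of 46.1%, and some flanks over 80% were seen at either end of the density axis.

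Transcript starts near a flank also went with its level. The rule kept members over 1000 bp from the start of the gene they were assigned to, but 187 of the 313 tested flanks (59.7%) lay within 1000 bp of some GENCODE transcript start. These had a mean of 16.2% and a median of 8.45%, whereas the other 126 had a mean of 40.3% and a median of 21.8%. Islands that held a transcript start flanked 277 tested members, with a mean of 23.6% and 25 members over 80%. The 36 flanks of islands without a start had a mean of 43.7%, and 13 of them were over 80%. Repeats were unevenly split here. Of all 38 flanks over 80%, 12 were repeat over their whole length, but only 2 of the 25 at islands with a start were. The part of repeats in this difference was not tested. GENCODE introns held 131 tested flanks with a median of 9.97%, exons held 92 with a median of 10.8%, and 90 lay between genes with a median of 16.5%. Only 3 of the 131 intronic flanks were over 80%, compared with 12 on exons and 23 between genes.

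Repeats were few but highly methylated. The 15 flanks whose bases were all marked as repeat in the reference had a median of 91.9%, 12 were over 80% and 0 were under 20%. The 242 flanks without repeat bases had a median of 10.4% and a mean of 22.6%. Reads from repeats can stem from other copies, so the levels of the 15 are uncertain.

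On 6 island sides there were at least 4 tested flanks, and 5 of these sides stayed low over their whole reach. The longest was the side of the Phf21a island, whose gene encodes a subunit of a histone demethylase complex. Its 8 fragments lie in an intron of Phf21a, although the authors assigned them to the microRNA gene Mir1955. They spanned 1011 to 1748 bp from the edge with VEH means of at most 18.4%, and the core was at 5.89%. Fragments of like CpG number differed: the one at 1075 bp, with 11 CpGs, ran from 14.3% to 22.3% with a median of 18.4%, and the one at 1211 bp, also with 11 CpGs, ran from 0.76% to 2.29% with a median of 1.33%. The ranges of these fragments did not overlap in VEH. They also differed in repeats, since 44.4% of the bases at 1075 bp and 0% at 1211 bp are marked as repeat in the reference.

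The other low sides were alike in size. At the Dnmt3b island, which serves a de novo DNA methyltransferase and whose flanks the authors assigned to Commd7, 5 fragments between 265 and 411 bp had VEH means of 4.36% to 12.9% beside a core at 5.65%. At the island of Lmx1b, a LIM homeobox gene of limb patterning, 4 fragments had means of 7.55%, 14%, 18.7% and 3.33% on moving from 271 to 1916 bp, beside a core at 7.0%. The Slco5a1 side rose to 18.1% at 787 bp and was at 4.96% at 915 bp. The side of the Txndc9 island went from 1.75% at 897 bp to 8.83% at 1257 bp, inside an intron of the translation factor gene Eif5b. The outermost fragment of these 5 sides differed from the innermost by between -4.22 and 7.07 points. Most fragments of the 5 low sides lay within 1000 bp of a GENCODE transcript start. The exceptions were the outermost at Phf21a (1051 bp) and at Lmx1b (1899 bp). The Usp21 fragments described next lay 33 to 330 bp from a start, and the part of transcript starts in these levels was not tested.

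The island of Usp21, a gene for a ubiquitin-specific protease, had the exception. Its core was at 5.13% in VEH, and the 4 exon fragments on its left side are printed above from the nearest to the farthest. The nearest, 622 bp out, ran from 69.4% to 92.6% with a median of 86.8%. The next, at 904 bp with 7 CpGs, ran from 10.9% to 24.8% with a median of 21.3%. The third, adjoining it at 1024 bp with 2 CpGs, ran from 91.6% to 95.9% with a median of 94.3%. The fragment at 904 bp was therefore below both of its neighbours in every VEH library, with no overlap of the ranges. The fourth, at 1063 bp, ran from 70.0% to 100% with a median of 88.9% over 11 libraries, at 10 to 118 calls. DDT means of the 4 were 85.0%, 20.6%, 93.7% and 82.4% and followed the same pattern.

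**Figure D4:**
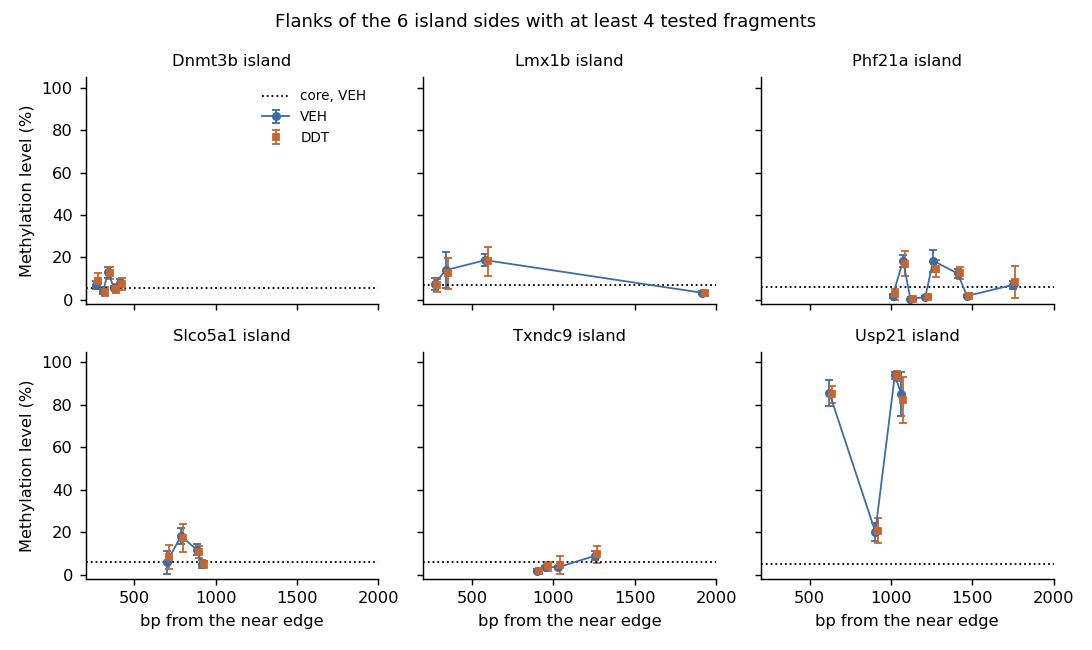
Methylation level (%) against bp from the near edge for the 6 island sides with at least 4 tested flanks, as VEH means in blue and DDT means in orange (drawn 14 bp to the right) with SD over libraries, and the VEH core level as a dotted line. In 5 panels the levels stay near the core line up to 18.7%, and the Usp21 panel goes from 85.5% to 20.1% and back to 93.9%.

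Both sides had tested flanks at 12 islands. At 6 of them both sides were under 20%, the median difference between the sides was 5.60 points in size, and at 3 islands it was over 20 points. The largest was at an island of Gnas, an imprinted gene for a G protein subunit, where the left flank was at 38.2% and the right flank at 79.7% in VEH, with the core at 72.4%. At Gsn, the gene of the actin-severing protein gelsolin, the left flank was at 96.2% and the right at 64.1%. These Gsn flanks lay at unlike distances, 1437 bp from the edge on the left and 357 bp on the right. At Vangl1, a planar cell polarity gene, the left flank was at 19.5% and the right at 40.4%.

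The Gnas flank was also the one that varied most between VEH libraries. This fragment, which the authors assigned to Mir298 and GENCODE places in an intron of the imprinted antisense transcript Nespas, ran from 0.0% to 84.3% in VEH with a median of 34.8%, and its SD was 28.8 points over 10 libraries at 15 to 353 calls. Next by SD were flanks of Rcor3 (22.5 points), Rev1 (21.5 points), Ppm1j (17.4 points) and Ndrg3 (15.4 points). All 5 had intermediate mean levels, from 31.1% to 72.5%, and those of Rcor3, Rev1 and Ndrg3 hold 1 CpG. The median SD was 6.98 points among intermediate flanks, 2.88 among low and 2.48 among high flanks. The 5 fragments had 10 to 353 calls per library, and the part of counting error in these SDs was not tested.

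Gene lists gave few tested flanks. Of 63 developmental transcription factor genes, 21 had flank fragments and 8 had tested ones, 14 fragments in all. Of these 14, 13 were under 20% in VEH, and the median was 7.90%. The lowest was the Prox1 fragment at 685 bp, which ran from 0.0% to 1.89% with a median of 0.28%. The highest belonged to Hlx, a homeobox gene, and ran from 18.2% to 60.4% with a median of 24.1%. Low levels also held for the 6 tested flanks of the list of 48 ion channel and neuronal genes, from 5.17% to 19.6% with both ends at Epha4, an ephrin receptor gene. The 4 of signalling genes ran from 1.39% at Erbb4, a neuregulin receptor gene, to 10.5% at Acvr2a, an activin receptor gene.

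Of 43 adipocyte and lipid genes, 6 had flanks and 2 had tested ones. At Agpat2, an acyltransferase of triglyceride synthesis, the fragment 834 bp from the island ran from 79.2% to 95.9% in VEH with a median of 92.2%, beside a core at 3.80%, and all its bases are repeat. The 3 fragments assigned to Angptl2, which encodes a secreted angiopoietin-like protein, lie beside the island of Garnl3, and had VEH means of 11.9%, 12.6% and 20.1%. In the list of 14 imprinted genes, matched by the gene the authors assigned, 1 had a tested flank: Wt1, a transcription factor of kidney development, with a mean of 8.26%. Wt1 is in the developmental list as well, and whether it is imprinted in this tissue was not tested. The flanks of the Gnas island, assigned to Mir298, are not in the count of imprinted genes. Nor are flanks in an intron of the listed gene Sfmbt2, assigned to AL772216.6, with VEH means of 5.84% and 5.12%. By the assigned gene, the 29 chromatin genes had 2 genes with flanks and 0 tested flanks. The 5 genes taken from the study's longer list of differentially methylated infant genes had 1 gene with flanks and 0 tested flanks. The count for chromatin genes leaves out tested flanks that lie in listed chromatin genes but carry another assigned gene. These include the flanks of the Dnmt3b island, assigned to Commd7, and a fragment on an exon of Ing5, assigned to Dtymk.

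DDT and VEH libraries were then compared at the flanks. The mean level over tested flanks ran from 13.2% to 27.9% in DDT with a median of 25%, and averaged 24.5% ± 4.15 (SD, n = 12). The difference from the VEH mean of 26.0% given above was -1.49 points, and the groups overlapped. The 2 lowest libraries were DDT replicate 4 (13.2%) and DDT replicate 12 (20.5%). The difference was -0.46 points without DDT replicate 4 and 0.041 points without both, whereas with calls pooled over fragments it was -5.05 points. Over the 118 flanks with a level in all 24 libraries it was -0.48 points, with DDT replicate 4 at 12.8% and VEH between 16.7% and 18.5%. Cores differed by -0.069 points and distant fragments by -2.40 points, or -0.81 points without DDT replicate 4. DDT replicate 4 had 11 calls at its median flank although it held 12788050 calls in all. The part of this uneven coverage in its position was not tested.

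Across single flanks no difference passed the adjusted threshold. Of the 313 tested flanks 0 had an adjusted p under 0.05 with the ANOVA F test and Benjamini-Hochberg adjustment over all 20225 tested fragments, of which 0% passed, and the smallest adjusted p of a flank was 0.869. Before adjustment, 8 flanks (2.56%) had p under 0.05, beside 4.18% of all tested fragments. Of these 8, 6 were lower in DDT (1.92% of flanks beside 2.93% of all) and 2 were higher (0.639% beside 1.25%). The share of flanks at an unadjusted p under 0.05 was thus below the background in each direction. Without DDT replicates 4 and 12, 40.0% of the flanks at an unadjusted p under 0.05 were lower in DDT, in place of 75%. Quasi-binomial regression and limma also gave 0 flanks at an adjusted p under 0.05, with 21 and 8 at an unadjusted p under 0.05, beside 7.72% and 3.51% of all tested fragments.

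At any p, 188 of the 313 flanks (60.1%) had a lower mean in DDT, compared with 56.9% of all tested fragments. Without DDT replicate 4 the shares were 53.9% and 51.9%. The median difference over flanks was -0.27 points and over all tested fragments -0.16 points. In 226 flanks the means differed by under 2 points, and in 4 by at least 10 points. The 95% interval of the difference reached a median of 3.18 points to either side in flanks under 20%, 2.51 points in flanks over 80% and 8.13 points in intermediate flanks, so differences smaller than this could mostly not be resolved. Among the 38 flanks over 80% the largest difference was 3.36 points in size and 0 had an unadjusted p under 0.05. The 25 methylated flanks beside cores under 20% are part of these.

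The smallest p of a flank belonged to an intronic fragment of Btg2, a gene for an antiproliferative protein, 780 bp from its island and with 2 CpGs. Its level ran from 8.76% to 12.4% in VEH with a median of 10.1%, and from 0.32% to 11.8% in DDT with a median of 6.47%. The VEH mean was 10.3% ± 1.28 and the DDT mean 6.81% ± 3.33 (SD over 12 libraries each; ANOVA, p = 0.0025, adjusted p = 0.869). In DDT 10 of 12 libraries were below the VEH median, and the groups overlapped. The lowest was DDT replicate 4, and the difference was -3.52 points with it and -2.93 points without it. Calls per library ran from 115 to 314.

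Beside the island of Mex3a, which encodes an RNA-binding protein, a fragment 210 bp away ran from 1.89% to 3.59% in VEH and from 0.0% to 3.65% in DDT, with medians of 2.60% and 1.64%. Of the 12 DDT libraries 11 lay under the VEH median, and the difference was -0.89 points (ANOVA, p = 0.0047, adjusted p = 0.869). Both groups were nearly free of methylation there, so the difference was small in absolute terms.

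The widest difference among the 8 was beside the island of Susd4, a complement regulator gene, in a fragment 406 bp from the edge and assigned by the authors to 4922505E12Rik. It ran from 29.4% to 68.2% in VEH with a median of 53.1% and from 15% to 68.8% in DDT with a median of 35.3%. The means were 51.6% ± 12.0 (SD, n = 12) and 36.1% ± 16.3 (SD, n = 11), a difference of -15.6 points (ANOVA, p = 0.016, adjusted p = 0.869). DDT libraries were below the VEH median in 10 of 11, with DDT replicate 12 the lowest, and the groups overlapped over most of their range at 14 to 91 calls per library.

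The Prox1 fragment with 1 CpG, 553 bp from the island and printed above, was higher in DDT. Prox1 encodes a homeobox factor that sets the lymphatic endothelial fate. Its level ran from 0.0% to 21.4% in VEH with a median of 16.8% and from 14.7% to 35.7% in DDT with a median of 19.9%, and the difference was 6.20 points (ANOVA, p = 0.016, adjusted p = 0.869). Only 2 of 12 DDT libraries were below the VEH median. The highest was DDT replicate 4, with 3801 calls where every other library had at most 410, and without it the difference was 4.91 points. Its neighbour at 685 bp, also printed above, had means of 0.53% in VEH and 0.67% in DDT (permutation test, p = 0.751). Prox1 was the only member of the developmental list at an unadjusted p under 0.05, 1 of 14 tested flanks higher and 0 lower, beside 1.25% and 2.93% of all tested fragments.

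At Hist2h4, within a cluster of histone genes with near-identical copies, the fragment 607 bp from the island was higher in DDT. It ran from 2.79% to 9.57% in VEH with a median of 3.79% and from 0.0% to 21.2% in DDT with a median of 6.27% (ANOVA, p = 0.036, adjusted p = 0.869). Without DDT replicate 12 the unadjusted p was 0.057. Reads of similar histone genes may be shared between copies, so this value is uncertain.

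The remaining 3 were lower in DDT. At Vangl1 the fragment of 1 CpG 44 bp from the edge had medians of 20.7% in VEH and 13.1% in DDT, and 10 of 10 DDT libraries were below the VEH median (ANOVA, p = 0.036). At Hs6st1, a heparan sulfate sulfotransferase gene, the medians were 35.4% and 31.0% (ANOVA, p = 0.044), the difference went from -7.01 to -4.43 points without DDT replicate 4, and p was 0.075 without DDT replicate 12. At the fragment assigned to Rpl35, a ribosomal protein gene, and lying across the island edge in an intron of Arpc5l, the medians were 3.07% and 2.58% (ANOVA, p = 0.042). Its lowest libraries were DDT replicates 4 and 12, and p was 0.082 without DDT replicate 4 and 0.081 without DDT replicate 12. Each of the 3 had an adjusted p of 0.869.

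**Figure D5:**
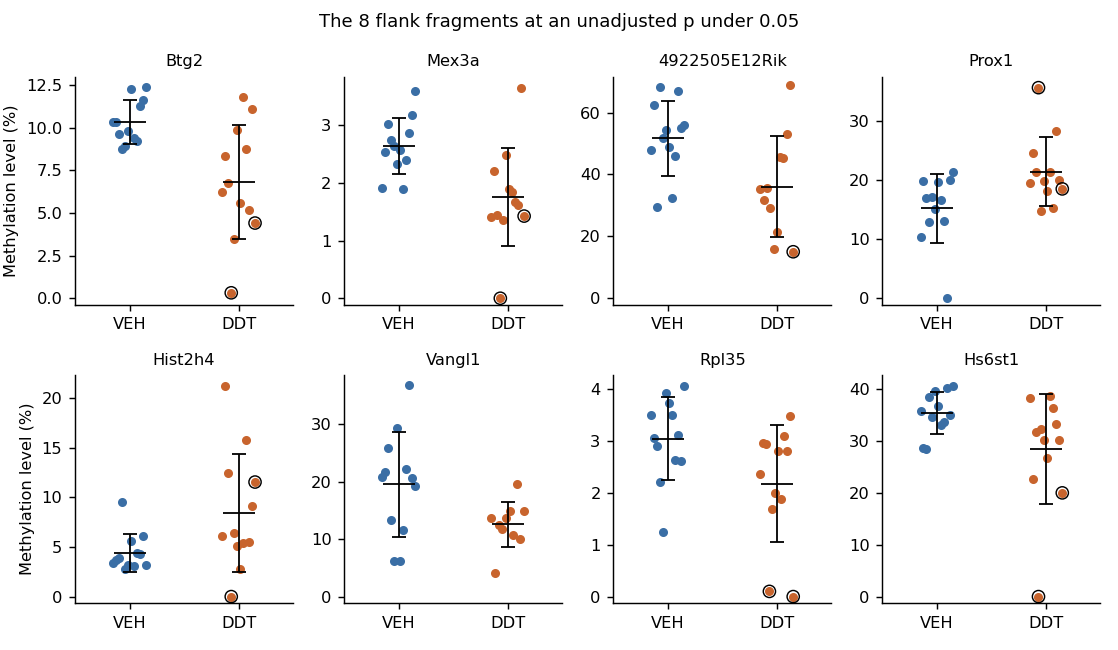
Methylation level (%) by library at the 8 flank fragments with an unadjusted p under 0.05, with VEH in blue, DDT in orange, mean and SD in black, and DDT replicates 4 and 12 ringed where they had a level; each panel has its own axis. The groups overlap in every panel, Prox1 and Hist2h4 are higher in DDT, and the ringed libraries are often at an end of the DDT range.

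A further pair of fragments completed the 10 smallest p-values. A 15-CpG fragment across the edge of the Dnmt3b island, assigned to Commd7, ran from 4.74% to 15.5% in VEH and from 0.0% to 9.84% in DDT, and 12 of 12 DDT libraries were below the VEH median of 10.1% (ANOVA, p = 0.056). Its difference of -2.37 points was -1.68 points without DDT replicate 4. An Erbb4 fragment 333 bp from its island had medians of 1.42% and 0.94% (ANOVA, p = 0.057), with 11 of 12 DDT libraries below the VEH median. Neither passed an unadjusted 0.05 with the ANOVA F test.

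In the other lists 0 flanks had an unadjusted p under 0.05 in either direction. In the list of ion channel and neuronal genes the smallest p was that of Kcnd3, a potassium channel gene, with means of 4.64% in DDT and 5.83% in VEH (permutation test, p = 0.209). At Angptl2 the means were 24% in DDT and 20.1% in VEH (exact permutation test over 8 DDT and 10 VEH libraries, p = 0.472), and at Wt1 9.39% and 8.26% (permutation test, p = 0.664). By distance, 1 of 66 flanks across the edge, 4 of 100 within 500 bp, 3 of 70 from 500 to 1000 bp, 0 of 55 from 1000 to 1500 bp and 0 of 22 farther out had an unadjusted p under 0.05, beside 4.18% of all tested fragments.

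At the limit of 2000 bp, the 5 tested flanks just inside were those of Dll4 (62.4% in VEH), Mir129-2 (4.09%), Ntsr1 (74.8%), Adra2b (39.9%) and Wnt2b (6.45%), with authors' distances from 1984 bp up. The 5 just outside, from 2022 bp up, were those of Bcs1l (88.2%), Gbx2 (28.2%), Adra2b (49.6%), AC111074.1 (93.9%) and Lmx1b (11.9%). High and low levels stood on both sides of the limit.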

How the data were processed

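RRBS was performed on BAT of 24 pools of infant female mice (12 DDT, 12 VEH). Single-end reads of 50 bp were trimmed with Scythe and Sickle and aligned by the authors to GRCm38 with Bismark 0.15.0 and Bowtie2 after FastQC, as the submitters' processing notes and the study's methods name them. The deposited counts are the methylated and the other CpG calls of each MspI fragment in each library, without normalization, with a gene, a region, an island class and distances. The release of that annotation is not given in the sources used here. The table ends on chromosome 3 after 65536 lines, header included, and later chromosomes were not analysed here. The sequence of 1 fragment is not reported here. Calls come from amplified reads without molecular identifiers, so they are not independent molecules. The 95% intervals of DDT minus VEH rest on the spread between litters.

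Levels were computed from the counts for libraries with 10 or more calls. The 20225 fragments that had a level in 8 or more VEH and DDT libraries went into the ANOVA F test named in the study's statistics section, with Benjamini-Hochberg adjustment over all of them and a threshold of 0.05. A two-sided permutation test (100000 resamples, exact under 10 libraries in a group) was added for single fragments. Distances to the near edge, CpGs, repeats (lower case in the reference) and GENCODE M21 annotation were taken from GRCm38, and an island was counted as holding a transcript start within 200 bp. The members and gene lists were chosen with earlier results of these data known. Genes named are those of the 10 smallest p, the smallest p and the lowest and highest VEH level of each list, the 6 island sides with at least 4 tested flanks, the 5 largest VEH SDs and the 5 fragments on each side of the 2000 bp limit. Others are named as chosen after their values were seen or as the islands with a large difference between sides. Replicate numbers did not pair the libraries (correlations of -0.15 to 0.18 between libraries of the same number), so no block was used.

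Alternatives were minimums of 5 and 20 calls, a level in all 24 libraries, leaving out DDT replicates 4 and 12, quasi-binomial regression on the counts, limma on log2((methylated + 1) / (not methylated + 1)), a replicate block, pooled calls and leaving out repeats. After the data were seen, members by distance to the near edge, without fragments across an edge, and over 1000 bp from every GENCODE start were added. Tests were checked on simulated data. Python 3.11.15, NumPy 2.4.6, pandas 2.3.3, SciPy 1.17.1, matplotlib 3.10.9, R 4.3.3 and limma 3.58.1 were used.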

Additional observations from a re-analysis of the deposited data

Results flagged for a closer look

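At the Erbb4 flank fragment 568 bp from its island, 1 library of each group was picked out as lying above the others of its group. VEH replicate 11 was at 8.33%, where the VEH median was 0.0% over 9 libraries, and DDT replicate 2 was at 16.7%, where the DDT median was 0.0% over 10 libraries. They rested on 12 calls and 24 calls. About 1 in 20 groups is picked out by chance with this test of the gap to the nearest library where values vary smoothly. Here both medians were 0.0% and the highest libraries had few calls, so that rate may not hold.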

How the results depend on the processing

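The 0 flanks at an adjusted p under 0.05 were 0 in all 9 alternatives run. The 8 at an unadjusted p under 0.05 became 21 with quasi-binomial regression, with 7.72% of all tested fragments. Otherwise they stayed within 6 to 10, beside 3.51% to 4.51% of all fragments tested in the same setting. With a level in all 24 libraries the flank share was above this background, at 6 of 118 flanks beside 4.24%. Among flanks at an unadjusted p under 0.05, the share lower in DDT was 75%. It became 40.0% without DDT replicates 4 and 12, and was 62.5% and 66.7% with either left out. With the replicate block 7 flanks had an unadjusted p under 0.05, beside 4.12% of all tested fragments, and 5 of the 8 named ones no longer did. The numbers did not pair the libraries: 3 of 12 pairs had a correlation over 0.1 and 1 DDT library correlated best with its own number.

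The mean VEH level of flanks of 26.0% was 17.4% with a level in all 24 libraries (118 flanks), 35.6% with pooled calls, 22.6% without repeats, 28.6% with members by the near edge, 29.6% without fragments across an edge and 40.2% over 1000 bp from every GENCODE start. In the same order, flanks exceeded cores by 11, 19.1, 16.5, 20.3, 21.3 and 31.9 points (17.7 as reported), and flanks minus distant fragments was -20.04, -10.6, -24.7, -24.9, -23.9 and -13.3 points (-27.5 as reported), and -28.0 and -26.3 with minimums of 5 and 20 calls. The order of the 3 classes held throughout. The difference between the bands of 1500 to 2000 and 1 to 500 bp, 11.6 points, was 15 and 13.6 with minimums of 5 and 20 calls, 1.09 with a level in all 24 libraries, -0.62 with pooled calls, 9.76 without repeats, 25.8 by the near edge and 19.7 over 1000 bp from every GENCODE start, so its sign depended on the summary. DDT minus VEH over flanks, -1.49 points, was -5.05 with pooled calls, and -0.46 and -1.13 without DDT replicate 4 or 12.

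Of 108 alternatives at 13 single fragments, 88 kept direction and side of 0.05. At the 8 fragments with an unadjusted p under 0.05, 54 of 70 alternatives kept both, and in the other 16 p was no longer under 0.05. In 2 alternatives at other fragments p fell under 0.05. These were the fragment across the edge of the Dnmt3b island with the replicate block (p = 0.016) and Angptl2 with quasi-binomial regression (p = 0.047). At Wt1 the sign turned, to -1.67 points with quasi-binomial regression and -0.13 on the log2 scale with limma. The cause of these changes was not tested. Too few calls left 968 flanks untested, and the flanks with a level in all 24 libraries were less methylated than the rest.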
